A study of Mus musculus with 5 samples.

Results

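The transcripts described here are those of 9 iron handling genes in the mouse kidney: Hmox1, Fth1, Ftl1, Slc40a1, Trf, Tfrc, Hp, Cd163 and Slc11a1. They were chosen by symbol, and all 9 were found among the 28692 genes of the deposited droplet matrices. Kidneys came from C57/BL6 mice aged 8 weeks, and each sample pooled 3 mice. A sham-operated sample (day 0) was set beside samples taken 2 days and 7 days after unilateral ureteric obstruction (UUO), an injury in which urine can no longer leave one kidney, and beside a sample taken 7 days after the obstruction had been reversed (experimental day 14). In total there were 4 droplet samples, 1 per condition, and 1 plate sample of 768 wells holding all time points together. Cells had been freed by digestion on ice and sorted for viability with DAPI, so the droplet values describe live dissociated cells. The labels repeat the droplet protocol for the plates, and how the plate cells were chosen is not given in the sources used here.

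With 1 library per condition there is no replicate of any condition, and no test between conditions was made. Intervals in brackets are exact 95% intervals that cover counting error only and say nothing of the difference between mice or preparations. Those on summed UMIs also leave out the spread between cells of a library, which is large where few cells hold most UMIs.

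Iron enters a cell mainly as transferrin-bound iron, through the transferrin receptor, or as haem from red cells and haemoglobin. Haem oxygenase opens the haem ring and frees the iron, ferritin cages of heavy and light chains store it, and ferroportin is the exporter that returns it to plasma. Macrophages recycle iron from aged red cells. Proximal tubule cells reabsorb iron and proteins that the glomerulus has let through. Iron regulatory proteins bind hairpins in the messenger RNAs of several of these genes. Such a hairpin before the coding sequence holds back translation when iron is scarce, and hairpins after the coding sequence protect the transferrin receptor messenger from decay.

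The hairpin sequences are shown because they set 4 of the 9 genes apart and because they mark what RNA counts cannot show, namely translation. The annotated transcripts (GENCODE M21, GRCm38) were searched on the transcribed strand for C, 5 bases of any kind, the 5 loop bases CAGTG, 1 base of any kind, and then 5 bases able to pair with the 5 before the loop, with G and T allowed to pair. A match lay before the coding sequence of Fth1, Ftl1 and Slc40a1. The other matches among the 9 genes were 4 in the 3′ untranslated region of Tfrc. Over 21504 genes, 0.144% had a match before the coding sequence and 0.595% had one after it. None of the other iron genes listed further on had a match, which says only that these letters were not found there. Each line gives 30 bases, 5′ to 3′ along the transcript, with the 6 loop bases in capitals.

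Fth1, before the coding sequence, chr19:9982732-9982761, plus strand: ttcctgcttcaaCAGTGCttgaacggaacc
Ftl1, before the coding sequence, chr7:45459778-45459807, minus strand: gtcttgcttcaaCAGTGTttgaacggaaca
Slc40a1, before the coding sequence, chr1:45925464-45925493, minus strand: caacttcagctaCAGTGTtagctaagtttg
Tfrc match 1, after the coding sequence, chr16:32631219-32631248, plus strand: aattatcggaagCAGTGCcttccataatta
Tfrc match 2, after the coding sequence, chr16:32631598-32631627, plus strand: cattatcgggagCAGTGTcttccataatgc
Tfrc match 3, after the coding sequence, chr16:32631663-32631692, plus strand: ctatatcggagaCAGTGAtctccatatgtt
Tfrc match 4, after the coding sequence, chr16:32631710-32631739, plus strand: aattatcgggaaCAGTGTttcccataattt

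After filtering, 3746 sham, 2159 day 2, 4287 day 7 and 3140 reversed cells remained, with median depths between 2659.5 and 6562 UMIs (unique molecular identifiers, which count each captured molecule a single time). Cells were assigned to gates, that is, sets of cells whose share of UMIs in a marker list passed a threshold. The phagocyte gate, defined by 17 macrophage and monocyte genes, held 49 sham, 409 day 2, 1908 day 7 and 474 reversed cells. Levels are in CPM, the UMIs of a gene per 1000000 UMIs summed over its gate, and they are not divided by transcript length. All 17 phagocyte genes had UMIs in the gate of every library, and their summed level was 26591 to 42126 CPM. Tubule cells of all segments numbered 3388, 1216, 799 and 1629 in the same order, and 3019, 615, 209 and 1102 of them were in the proximal tubule gate. Any contrast with sham phagocytes rests on those 49 cells and 150728 UMIs, where 3 UMIs already equal 19.9 CPM. Between 16 and 39 cell barcodes were shared by any 2 libraries.

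Transcripts that mark other cell types were found in every gate. The 17 phagocyte genes summed to 46.2, 433, 2405 and 890 CPM in proximal tubule cells of the sham, day 2, day 7 and reversed libraries, and to 46.6, 432, 2511 and 902 CPM in endothelial cells. Haemoglobin and other red cell genes summed to 6.63, 19.0, 293 and 163 CPM in phagocytes and to 5.53, 18.9, 260 and 268 CPM in the proximal tubule, so red cell RNA was present at day 7 and after reversal in both. A member was therefore read as background in a gate when its intervals overlapped those of both endothelial cells and T and NK cells in every library. Where only some of them overlapped, the overlap is given beside the levels.

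Hmox1 (chr8:75093621-75100589, plus strand) encodes haem oxygenase 1, the inducible enzyme that breaks down haem. It was highest in obstructed phagocytes at day 2. The phagocyte level was 39.8 CPM in sham (6 UMIs; 14.6 to 86.6), 236 at day 2 (222 to 251), 84.5 at day 7 (79.5 to 89.7) and 171 after reversal (158 to 186). The 4 libraries thus ordered as day 2, reversed, day 7 and sham, where the sham and day 7 intervals overlapped and no others did. On the log2(CPM + 1) scale the difference between day 2 and sham was 2.54 (1.43 to 3.93), and that between day 7 and day 2 was -1.47 (-1.60 to -1.35). The reversed library stood 1.01 above day 7 (0.87 to 1.16) and 2.08 above sham (0.97 to 3.47). The step from day 7 to reversed differed between sub-gates, from 74.4 to 66.4 CPM in monocytes, from 90.2 to 131 in macrophages and from 66.0 to 318 in the remaining phagocytes, of which the reversed library had 85. At day 2 the 3 sub-gates had 80.8, 385 and 228 CPM. The step from day 7 to reversed was at the 2-fold limit: it was 0.99 with TMM factors or with Leiden clusters as gates and 0.83 with each cell counted equally.

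Proximal tubule Hmox1 followed another course. Its level was 14.2 CPM in sham, 48.6 at day 2, 48.2 at day 7 and 23.7 after reversal, against 9.70, 27.9, 18.3 and 13 CPM in endothelial cells. Day 2 was 1.71 above sham (1.38 to 2.03, log2), day 7 did not differ from day 2 beyond counting error (-0.01, -0.43 to 0.40), and the reversed library stood at -0.996 against day 7 (-1.41 to -0.57), at the 2-fold limit. Over the alternatives that step ran from -0.69 with TMM factors to -1.13 with free RNA subtracted. The proximal and endothelial intervals overlapped in sham, at day 2 and after reversal and did not at day 7, while the day 2 level was also above that of T and NK cells (4.07 CPM). The loop of Henle held 1.55, 6.505, 6.46 and 3.97 CPM on 1, 14, 9 and 5 UMIs, and T and NK cells held 0, 4.07, 11.2 and 6.34 CPM on 0, 2, 15 and 6, with intervals that overlapped in each library. Distal and collecting duct cells held 17.7, 22.3, 30.7 and 18.9 CPM. Their intervals overlapped the endothelial ones in each library and lay above those of T and NK cells at day 2 and day 7. Phagocytes made up 1.31% of kept cells in sham and 18.9% at day 2, and they held 3.43% of the kept Hmox1 UMIs in sham and 76.9% at day 2.

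**Figure D1:**
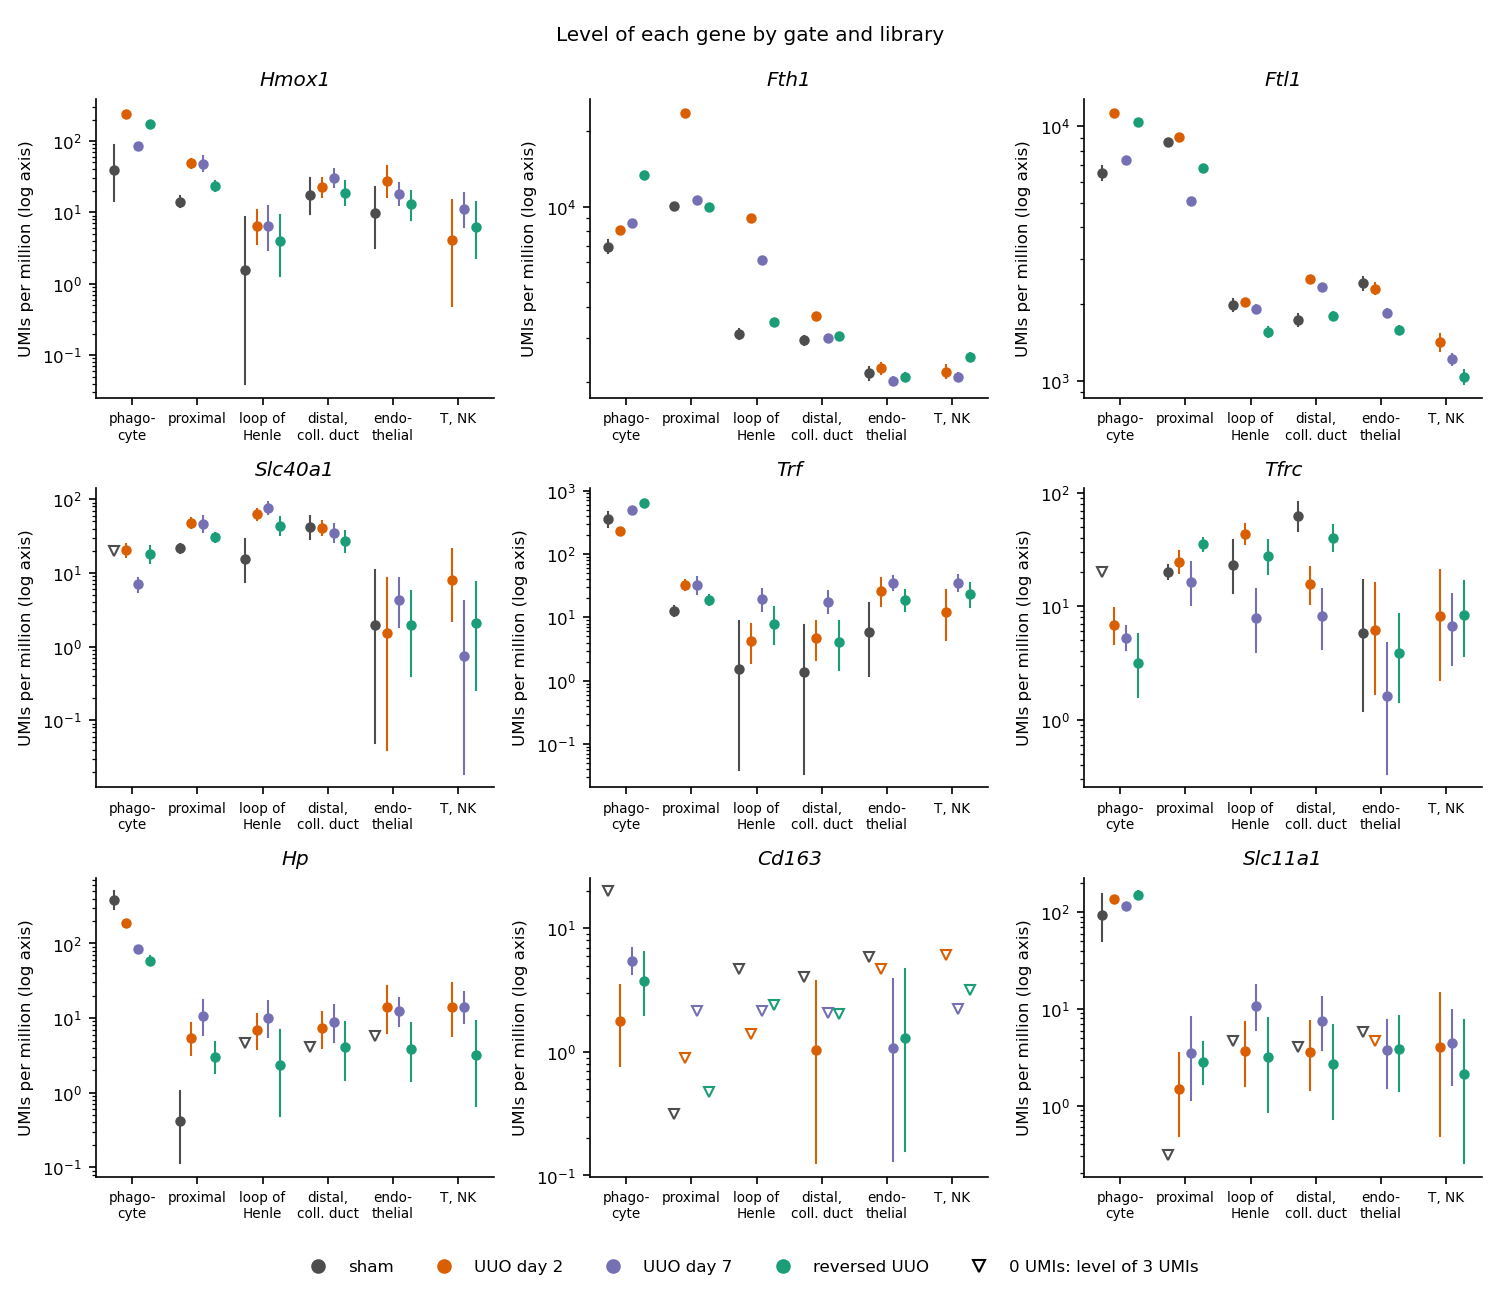
Level of each of the 9 genes (CPM, log axis) in 6 gates, 1 panel per gene and 1 point per library, with exact 95% Poisson intervals for counting error. Open triangles mark 0 UMIs and sit at the level of 3 UMIs. Gates under 30 cells in a library are not drawn. Hmox1 in phagocytes is highest at day 2, at 236 CPM, whereas Fth1 reaches its highest point, 23517 CPM, in day 2 proximal tubule cells.

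The Hmox1 UMIs of phagocytes were concentrated in few cells. At day 2, 237 of 409 phagocytes had no Hmox1 UMI, and the 10% of cells with the most held 85.1% of the UMIs. A single cell held 223 of the 1070 UMIs. Cells with at least 1000 CPM and at least 3 UMIs of Hmox1, a limit set after the values had been seen, numbered 0 in sham, 13 at day 2, 11 at day 7 and 13 after reversal. They were 3.18%, 0.577% and 2.74% of the phagocytes of the 3 obstructed or reversed libraries and held 72.4%, 20.3% and 50.3% of their Hmox1 UMIs. The limit cuts a range of values, with 5, 19 and 11 cells just below it and 7, 6 and 7 just above it, and whether these cells form a separate group was not tested. At day 2, 6 of the 13 were in the macrophage sub-gate, 1 in the monocyte sub-gate and 6 in neither.

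Without those cells, which were picked by their Hmox1 so that its level had to be lower, 3 of the 4 Hmox1 differences were below 2-fold. The day 2 library then stood 0.75 above sham, day 7 and day 2 differed by 0.004, and the reversed library stood 0.38 above day 7 (log2). The reversed library stayed past 2-fold from sham, at 1.13. When each phagocyte was thinned to 1000 UMIs, a Hmox1 UMI was found in 4.08% of sham cells (0.498 to 14.0), 7.82% of day 2 cells (5.41 to 10.9), 6.76% of day 7 cells (5.68 to 7.98) and 8.65% of reversed cells (6.28 to 11.6). Unthinned shares were 10.2%, 42.1%, 29.2% and 37.6%. The intervals at equal depth overlapped for all 4 libraries, so a change in how many phagocytes carried Hmox1 was not detectable at this depth. T and NK cells thinned in the same way gave 0%, 0%, 0.602% and 1.18%, from median depths of 1846 to 3487 UMIs against 2695 to 9959 in phagocytes.

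**Figure D2:**
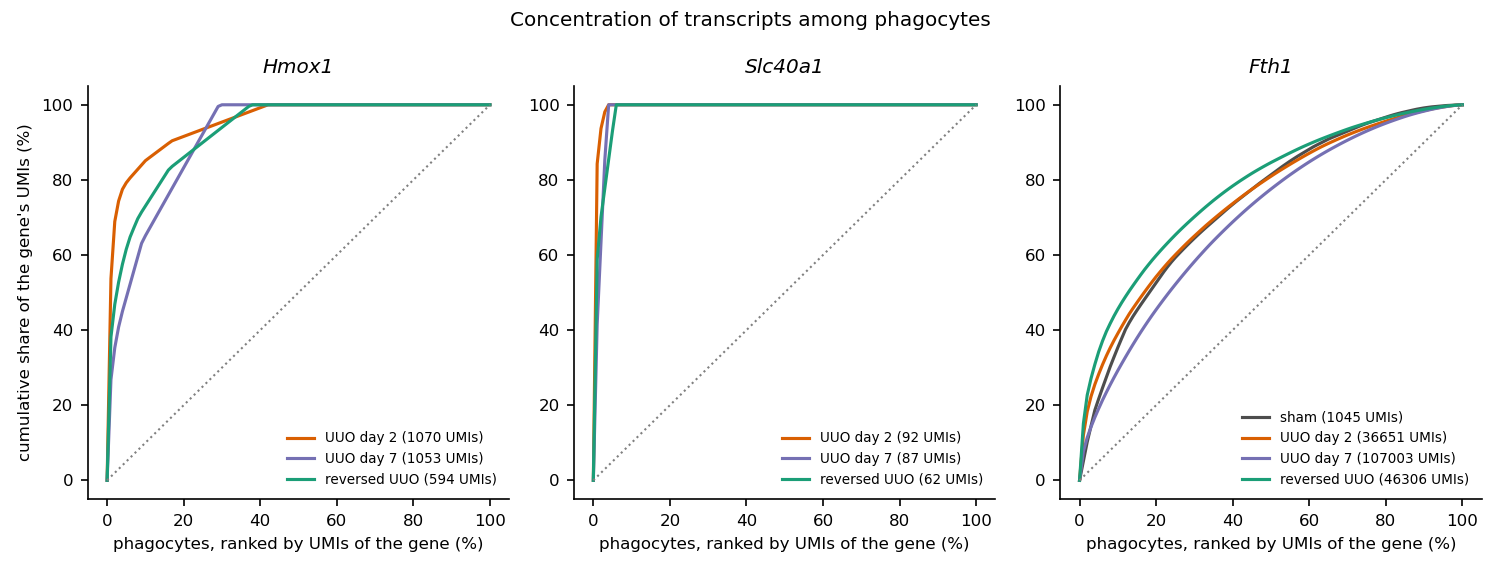
Cumulative share of the UMIs of Hmox1, Slc40a1 and Fth1 (percent, vertical axis) against phagocytes ranked from most to fewest UMIs of that gene (percent, horizontal axis), 1 line per library. The dotted diagonal is an equal share in every cell. The day 2 line of Hmox1 has reached 85.1% at the 10% of cells with the most, whereas the Fth1 lines stand at 29.3% to 45.4% there.

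Levels of other iron genes were then compared between these cells and the remaining phagocytes, for genes chosen after their values had been seen. Ferritin heavy chain was 30222 CPM in the day 2 cells high in Hmox1 and 7227 CPM in the other phagocytes, a ratio of 4.18. That ratio was 2.96 at day 7 and 4.26 after reversal, and for ferritin light chain it was 3.61, 3.52 and 3.39. In each library 1 cell carried much of this: 1017 of 5148, 1290 of 2482 and 2599 of 6457 heavy chain UMIs, and 1045 of 6262, 1293 of 2507 and 1288 of 4108 light chain UMIs. Slc48a1, which carries haem out of endosomes, had ratios of 6.46, 4.19 and 4.92. Gclm, a subunit of the first enzyme of glutathione synthesis, had ratios of 6.57, 4.67 and 5.06. Blvrb, a biliverdin reductase, had ratios of 3.63, 2.83 and 1.52. Nfe2l2, a transcription factor of the antioxidant response, had ratios of 0.886, 1.14 and 0.895. Among the other members, Trf had ratios of 1.63, 1.4796 and 2.51, with 127 of the 192 reversed UMIs in 1 cell, and Slc11a1 had ratios of 2.14, 1.82 and 2.24. Slc40a1 was 429 CPM against 4.36 in the rest at day 2, 50.4 against 6.63 at day 7 on 5 UMIs, and 7.87 against 18.3 after reversal on 1 UMI. Hp had a ratio of 0.276 at day 2, 0 UMIs at day 7, and 0.525 after reversal on 4 UMIs. Tfrc had at most 3 UMIs in these cells of a library, and Cd163 had 13 at day 7, 12 of them in 1 cell, and 0 in the other two libraries.

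Depth and the contents of neighbouring blood cells were looked at beside these ratios. Median depth was 13771 UMIs in the day 2 cells high in Hmox1 and 9871.5 in the rest, but 5665 against 6073 at day 7 and 5895 against 6455 after reversal. Haemoglobin Hbb-bs was 17.6 CPM on 3 UMIs at day 2 (3.63 to 51.5) against 10.3 in the rest, and stood at 1.13 times its level in the rest at day 7 and 1.08 times after reversal. Pf4, a chemokine of platelets and of some macrophages, stood at 14.8, 8.66 and 5.63 times its level in the rest, and 1 cell held 256 of its 384 day 7 UMIs. The platelet gene Ppbp had 99 UMIs in the day 2 cells, 85 of them in 1 cell, 79 in the day 7 cells, 78 of them in 1 cell, and 0 after reversal. Itga2b, a platelet integrin, had 0 UMIs in these cells in all 3 libraries. It was also sparse in the remaining phagocytes, at 1.15, 1.21 and 0.899 CPM, so that 0 says little. The part of attached platelets in the result was not tested.

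Fth1 (chr19:9980598-9985098, plus strand) and Ftl1 (chr7:45457944-45459884, minus strand) encode the heavy and light chains of ferritin, the heavy chain carrying the ferroxidase activity. Both were among the abundant transcripts, together 1.34% to 2.37% of all UMIs in phagocytes and 1.57% to 3.25% in the proximal tubule. Every phagocyte had UMIs of both. Proximal Fth1 was 10039.8 CPM in sham, 23517 at day 2, 10599 at day 7 and 9954 after reversal. The day 2 library alone was more than 2-fold from sham, 1.23 above it (1.21 to 1.24, log2), though short of 2-fold at 0.85 with TMM or median-of-ratios factors. In CPM the reversed library lay within counting error of sham (-0.01, -0.03 to 0.002). That match depended on the scale. The TMM factors by which totals are multiplied were 0.781 in sham and 1.01 after reversal, which puts the reversed level below sham. Proximal Ftl1 showed no such peak: 8625, 9002.5, 5082 and 6863 CPM. It was 0.06 above sham at day 2, but below sham by other scales (-0.32 with TMM factors, -0.31 with median-of-ratios factors and -0.15 with mitochondrial UMIs left out), and 0.33 below sham after reversal.

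The loop of Henle showed the Fth1 peak as well. Fth1 there was 3105, 9004, 6105 and 3471 CPM, while Ftl1 was 1978, 2037, 1907 and 1547 CPM. In distal and collecting duct cells Fth1 moved over a narrow range, from 2939 to 3672 CPM. Fth1 was lowest in endothelial cells, at 2173, 2273, 2031 and 2094 CPM, and in T and NK cells, at 2670, 2203, 2103 and 2524 CPM, among the 6 gates drawn.

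Phagocytes differed from tubule cells in that their highest Fth1 came after reversal. The Fth1 level in the gate was 6933, 8092, 8585 and 13368 CPM in sham, day 2, day 7 and reversed libraries, and Ftl1 was 6508, 11185, 7335 and 10363 CPM. Fth1 after reversal was 0.64 above day 7 (0.62 to 0.65) and 0.95 above sham (0.86 to 1.04, log2). The latter was short of 2-fold, but past it at 1.07 with TMM factors, 1.02 with median-of-ratios factors and 1.11 with free RNA subtracted, and it was 0.78 without the cells high in Hmox1. Ftl1 was 0.78 above sham at day 2 (0.69 to 0.87), 0.61 below day 2 at day 7 and 0.50 above day 7 after reversal. Within the phagocyte gate, cells past neither the macrophage nor the monocyte threshold had the highest reversed levels, at 17044 CPM of Fth1 and 13878 CPM of Ftl1. The 20 neutrophils of that library were also high, with 21766 CPM of Fth1 against 7478 in 16 day 2 neutrophils and 8325 in 55 day 7 neutrophils.

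The balance of the chains differed between compartments. UMIs of 3′ libraries are captured with an efficiency that can differ between transcripts, so only changes of the ratio between libraries are read. Fth1 UMIs per Ftl1 UMI in the proximal tubule were 1.16 in sham, 2.61 at day 2, 2.09 at day 7 and 1.45 after reversal, with intervals no wider than 2.03 to 2.15. The loop of Henle gave 1.57, 4.42, 3.20 and 2.24. Distal and collecting duct cells went the other way at day 2, from 1.70 in sham to 1.47, and phagocytes went from 1.07 (0.975 to 1.16) to 0.723 (0.714 to 0.733) before 1.17 and 1.29. In macrophages the ratio was 0.841 at day 2, 1.21 at day 7 and 1.38 after reversal. In monocytes it stayed under 1, at 0.606, 0.868 and 0.739.

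**Figure D3:**
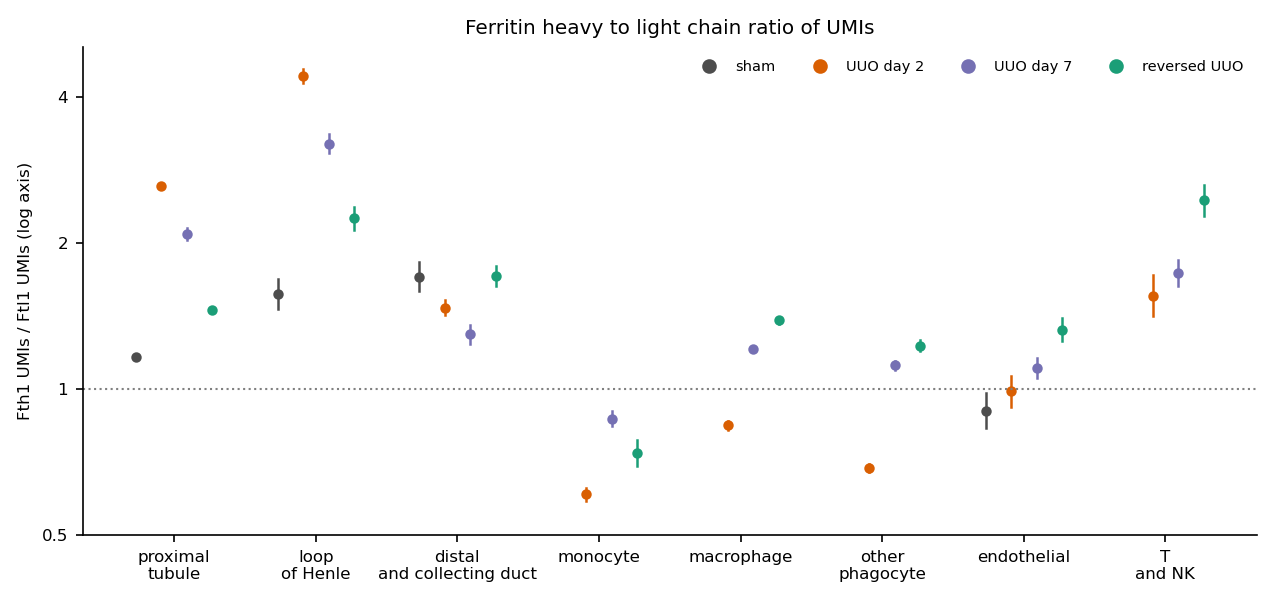
Fth1 UMIs divided by Ftl1 UMIs (log axis) by gate, 1 point per library, with exact 95% intervals for counting error. The dotted line marks equal UMIs. At day 2 the ratio is 2.61 in the proximal tubule and 4.42 in the loop of Henle but 0.606, 0.841 and 0.686 in the monocyte, macrophage and remaining phagocyte sub-gates.

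Ftl1 has close copies in the genome. Of the annotated copies that share at least 20% of their transcript with Ftl1, 1 had a row of its own in the matrices, Gm10116, which the annotation calls Ftl1-ps1 and which shares 86.0% of its 25-base words with Ftl1. It held 22, 721, 1170 and 582 phagocyte UMIs beside 981, 50661, 91413 and 35898 of Ftl1. Reads from the copies and from Ftl1 cannot be told apart where they are identical, and the level of Ftl1 is uncertain to that extent.

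Slc40a1 (chr1:45908068-45926523, minus strand) encodes ferroportin, the only known iron exporter of mammalian cells. Its transcripts lay mainly in tubule cells, which held 97.3%, 75.1%, 66.1% and 67.5% of the kept UMIs. Those cells made up 90.4%, 56.3%, 18.6% and 51.9% of kept cells. Proximal levels were 21.8, 48.0, 46.1 and 30.3 CPM. The day 2 level was 1.10 above sham (0.81 to 1.40), but short of 2-fold at 0.74 with TMM or median-of-ratios factors, 0.91 with mitochondrial UMIs left out and 0.87 with a pseudocount of 10 CPM. Its day 7 level matched day 2 within counting error, and the reversed library was 0.59 below day 7 (-0.99 to -0.17). The loop of Henle had 15.5, 62.3, 76.1 and 43.7 CPM, on 10 sham UMIs, so that its day 2 level was 1.94 above sham (1.06 to 2.94). Endothelial cells, with 1 to 8 UMIs per library, had 1.55 to 4.31 CPM. Collecting duct and distal cells did not share the increase, with 42.1 CPM in sham and 41.0 at day 2. Stromal cells, few in number, had 32 UMIs in the 60 cells of the reversed library, or 79.9 CPM.

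In phagocytes Slc40a1 was sparse and concentrated. It had 0 UMIs in sham (0 to 24.5 CPM) and 20.3, 6.98 and 17.9 CPM in the later libraries. All 3 later levels lay within the sham interval, so no difference from sham can be read. Day 7 was 1.42 below day 2 (-1.82 to -1.01), and the reversed library was 1.24 above day 7 (0.79 to 1.69). With a pseudocount of 10 CPM these differences were -0.84 and 0.72, short of 2-fold. Few cells set these values: 14 of 409 day 2 phagocytes had a UMI, and 1 of them held 51 of the 92. The 13 day 2 cells high in Hmox1 held 73 of the 92. Without them and their counterparts, day 7 was 0.51 above day 2, the opposite direction, and with each cell counted equally it was 0.92 below. After reversal, 1 cell held 21 of the 62 UMIs. T and NK cells had 8.14, 0.744 and 2.11 CPM in the same 3 libraries.

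Trf (chr9:103204001-103230444, minus strand) encodes transferrin, the plasma carrier of iron, made mostly by the liver and also by macrophages. Phagocytes held 24.9%, 79.2%, 87.7% and 81.4% of its kept UMIs, and they made up 1.31%, 18.9%, 44.5% and 15.1% of kept cells. Phagocyte levels were 352 CPM in sham (53 UMIs; 263 to 460), 229 at day 2 (215 to 243), 500 at day 7 (487 to 512) and 634 after reversal (608 to 661). Day 2 was the lowest library and the reversed library the highest. Day 7 was 1.12 above day 2 (1.03 to 1.22), or 0.94 above it with double the marker share, and the reversed library was 0.34 above day 7 and 0.85 above sham (0.46 to 1.27). A Trf UMI was present in 18.1% of day 2 phagocytes and 39.2% of reversed phagocytes at equal depth (14.5 to 22.2 and 34.8 to 43.8), and in 68.7% and 86.1% unthinned.

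The make-up of the gate also differed between libraries, though little between day 7 and reversed. Macrophages had 454, 384, 603 and 795 CPM of Trf, whereas monocytes stayed between 193 and 214 CPM. The macrophage share of the gate was 57.1%, 23.7%, 75.9% and 72.6%, and the monocyte share was 20.4%, 35.2%, 9.70% and 9.49%. Within macrophages alone the day 2 level was still the lowest, with an interval that overlapped that of sham, and the reversed level the highest. In the proximal tubule Trf was 12.7, 32.7, 31.9 and 18.7 CPM, with intervals that overlapped those of endothelial cells (5.82, 26.4, 35.0 and 18.8 CPM) in all 4 libraries. The loop of Henle had 1.55, 4.18, 19.4 and 7.94 CPM and distal and collecting duct cells 1.36, 4.68, 17.8 and 4.05 CPM, below the proximal tubule beyond counting error in all but the day 7 library. T and NK cells had 12.2 CPM at day 2, below the proximal level, and 35.0 and 23.2 CPM at day 7 and after reversal, with intervals that overlapped it. With free RNA subtracted, proximal Trf was 12.7, 29.6, 5.73 and 5.08 CPM, so that the reversed level was above sham as counted (0.52) and below it after subtraction (-1.17, log2). The overlapping gene Gm20425 had 0 UMIs.

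**Figure D4:**
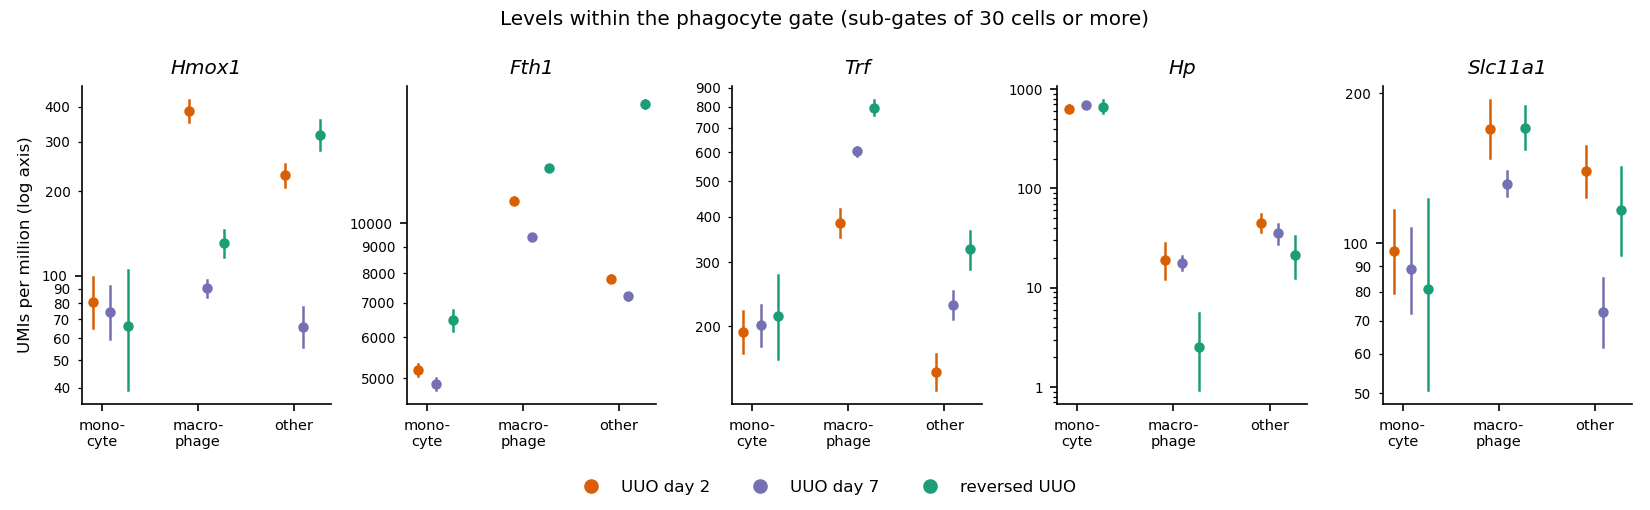
Levels of Hmox1, Fth1, Trf, Hp and Slc11a1 (CPM, log axes that do not start at 0) in the monocyte, macrophage and remaining phagocyte sub-gates, with exact 95% intervals for counting error. The sham library is left out because its sub-gates hold 10, 28 and 11 cells. Hp lies at 637 to 689 CPM in monocytes and at 2.56 to 19.1 CPM in macrophages.

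Tfrc (chr16:32608920-32632794, plus strand) encodes the transferrin receptor, which takes up iron-loaded transferrin. Tubule cells held 97.5%, 81.5%, 32.8% and 87.9% of its kept UMIs, beside the shares of kept cells given for Slc40a1. Proximal levels were 20.04, 24.6, 16.3 and 35.4 CPM, the reversed library being 1.07 above day 7 (0.48 to 1.71) and 0.79 above sham (0.52 to 1.07). The first of these was short of 2-fold under several alternatives. It was 0.87 with double the marker share, 0.93 with Leiden clusters, 0.99 without doublet removal and 0.79 with a pseudocount of 10 CPM. Distal and collecting duct cells had 62.5 CPM in sham (45.7 to 83.3), 15.6 at day 2 (10.5 to 22.3), 8.20 at day 7 and 40.5 after reversal. There the sham level exceeded the levels of both obstructed libraries, and the reversed level lay between them and sham. The loop of Henle had 23.3, 43.7, 7.90 and 27.8 CPM, and its day 7 level was 2.33 below day 2 (-3.23 to -1.50). In the proximal tubule the step from day 2 to day 7 was within counting error (-0.57, -1.25 to 0.08). Phagocytes had 0 UMIs in sham and 6.84, 5.30 and 3.18 CPM later. T and NK cells had 8.14, 6.70 and 8.45 CPM there, on 4, 9 and 8 UMIs. Endothelial cells had 6.21, 1.62 and 3.90 CPM on 4, 3 and 6 UMIs. The intervals of both overlapped those of phagocytes in each library, so by the rule above phagocyte Tfrc was read as background. With so few UMIs in the other gates the intervals are wide, and the overlap cannot show that all of it was background. With free RNA subtracted, phagocytes kept 5.41 CPM at day 2, 4.77 at day 7 and 0 after reversal.

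Hp (chr8:109575128-109579172, minus strand) encodes haptoglobin, which binds free haemoglobin and is stored in granules of neutrophils and monocytes. In phagocytes it was lower at each later library: 385 CPM in sham (58 UMIs; 292 to 497), 186 at day 2, 84.5 at day 7 and 58.9 after reversal (51.1 to 67.6). No 2 of the 4 intervals overlapped. Day 2 was 1.04 below sham (-1.43 to -0.63), day 7 was 1.13 below day 2 (-1.26 to -1.001), and the reversed library was 2.69 below sham (-3.11 to -2.24). In sham, 1 cell held 33 of the 58 UMIs. With each cell counted equally, day 2 was 0.17 above sham, so the direction of that step depended on how cells were weighted. With TMM factors or double the marker share it was 0.82 below, short of 2-fold.

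The transcript was highest in monocytes and neutrophils. Monocytes had 637, 689 and 664 CPM in the day 2, day 7 and reversed libraries, which did not differ beyond counting error, and 1539 CPM in the 10 sham monocytes. Macrophages had 19.1, 17.7 and 2.56 CPM. The monocyte share of the gate, given above for Trf, was lower at day 7 and after reversal than at day 2, as Hp was, but higher at day 2 than in sham, where Hp was not. Neutrophils, which have a gate of their own, had 1709, 1015 and 755 CPM of Hp. Stromal cells had 132 CPM at day 7, on 94 UMIs in 71 cells, and 42.5 CPM on 17 UMIs after reversal. Neutrophil marker genes summed to 19.9, 235, 268 and 104 CPM within the phagocyte gate, and their part in its Hp level was not tested. In proximal tubule cells Hp had 4, 18, 15 and 19 UMIs, at 0.418 to 10.6 CPM, no more than the 0 to 14.3 CPM of endothelial and T and NK cells, and was read as background.

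Cd163 (chr6:124304656-124330527, plus strand) encodes the receptor through which macrophages take up haptoglobin bound to haemoglobin. It was barely detected. Phagocytes had 0, 8, 68 and 13 UMIs, or 0 to 5.46 CPM, and the proximal tubule had 0 in all 4 libraries. Day 7 was 1.22 above day 2 (0.45 to 1.94), with 27 of 1908 cells positive and 15 of the 68 UMIs in 1 cell. That difference was short of 2-fold at 0.94 without the cells high in Hmox1, 0.65 with each cell counted equally and 0.39 with a pseudocount of 10 CPM. The day 7 and reversed levels did not differ beyond counting error (-0.44, -1.18 to 0.28).

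Slc11a1 (chr1:74375195-74386062, plus strand) encodes a transporter of the phagosome membrane that moves iron and manganese out of the phagosome. Phagocytes held 87.5%, 91.5%, 91.0% and 86.1% of its kept UMIs, beside the shares of kept cells given for Trf. Neutrophils had 75.2 to 153 CPM on 10 to 18 UMIs, and stromal cells had up to 28.0 CPM on 20 UMIs. Phagocyte levels were 92.9 CPM in sham (14 UMIs; 50.8 to 156), 138 at day 2, 117 at day 7 and 150 after reversal, and no comparison of libraries reached 2-fold. Day 2 against sham was 0.56 with an interval that included 0 (-0.19 to 1.43). Macrophages had 170, 132 and 171 CPM at day 2, day 7 and after reversal and monocytes 96.6, 88.8 and 81.1. Proximal cells had 0, 5, 5 and 18 UMIs, at most 3.54 CPM, against 0 to 4.46 CPM in endothelial and T and NK cells.

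Each comparison was then counted over the members, taking a gene as called when its levels differed by more than 2-fold on the log2(CPM + 1) scale and as tested when it had at least 10 UMIs in the 2 libraries together. In phagocytes at day 2 against sham, 8 members could be compared, 1 was called higher (Hmox1) and 1 lower (Hp), beside 9.88% of all genes higher and 12.9% lower. At day 7 against day 2, 2 of 9 were higher (Trf and Cd163) and 3 lower (Hmox1, Slc40a1 and Hp), beside 8.2% and 3.74%. In reversed against day 7, 2 of 9 were higher (Hmox1 and Slc40a1) and 0 lower, beside 3.08% and 1.11%. In reversed against sham, 1 of 9 was higher (Hmox1) and 1 lower (Hp), beside 8.66% and 8.38%. With so few members, shares of 1 in 8 or 9 lay near the background in both comparisons with sham. The comparisons share libraries and are not independent of each other.

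The same count in the proximal tubule gave its largest number at day 2 against sham. There 5 of 7 members were called higher (Hmox1, Fth1, Slc40a1, Trf and Hp), beside 12.0% of all genes, and 0 lower, beside 1.44%. Of the 5, Hp was at background level, and Hmox1 and Trf had intervals that overlapped the endothelial ones, as given above. At day 7 against day 2, 0 of 8 were higher and 1 lower (Fth1), beside 10.4% and 2.23%. In reversed against day 7, 1 of 8 was higher (Tfrc) and 1 lower (Hp), beside 2.15% and 9.49%. In reversed against sham, 2 of 8 were higher (Hp and Slc11a1, both at background level) and 0 lower, beside 12.0% and 0.129%. The median log2 difference of the members at day 2 against sham was 1.23 beside 0.31 for all genes. In phagocytes it was 0.67 beside 0.20. With genes at 0 in sham set to 3 UMIs the members' median was 0.13, and the median of all genes was not computed in that way.

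Proximal calls leaned on the scale. Mitochondrial transcripts took 34.2% of proximal UMIs in sham, 23.8% at day 2, 18.1% at day 7 and 29.1% after reversal, and higher shares lower the CPM of every other gene. With edgeR's TMM factors the median of all genes at day 2 against sham moved from 0.31 to -0.03. Higher calls then made up 66.8% of all calls in place of 89.2%, and 7.48% of all genes and 2 members were called higher in place of 12.0% and 5. Fth1 stood at 0.85, Slc40a1 at 0.74 and Trf at 0.94, still above sham and above that median but short of 2-fold. The share of calls that were higher changed likewise from 82.4% to 60.2% at day 7 against day 2 and from 18.5% to 46.6% in reversed against day 7. In phagocytes it changed from 43.4% to 60.7% at day 2 against sham and from 50.8% to 61.7% in reversed against sham. Hmox1 stayed past 2-fold at day 2 against sham in both gates under this scale, as it did with mitochondrial UMIs left out.

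**Figure D5:**
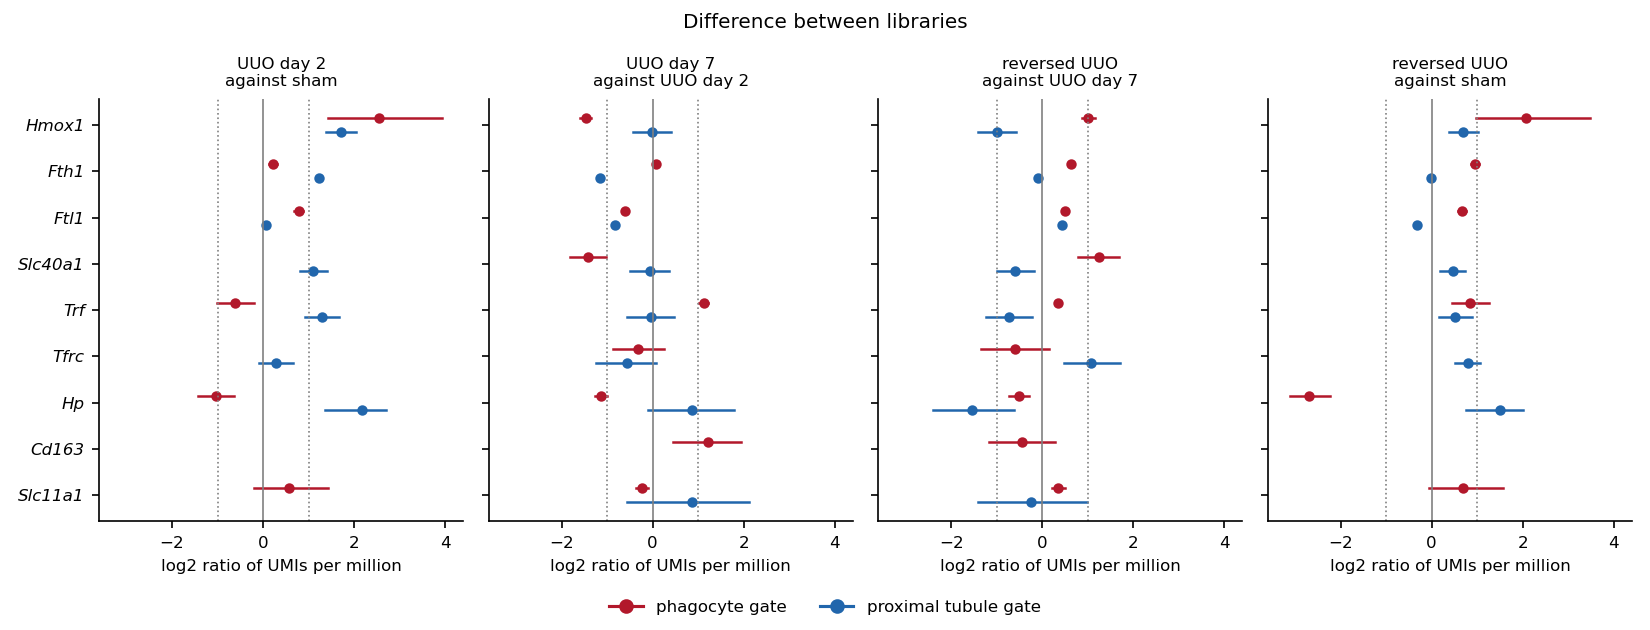
Difference between libraries for each gene (log2 ratio of CPM with 1 added, horizontal axis), 1 panel per comparison, red for phagocytes and blue for proximal tubule, with exact 95% intervals for counting error. Dotted lines mark 2-fold. Pairs with 0 UMIs in a library or under 10 UMIs in all are not drawn. In reversed UUO against UUO day 7, Hmox1 stands at 1.01 in phagocytes and at -0.996 in the proximal tubule.

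The other genes of iron metabolism were taken from a list of 43, of which 41 were matched in the matrices. In phagocytes 5 of 28 were higher and 5 lower at day 2 against sham, beside 9.88% and 12.9% of all genes. The counts were 2 of 31 higher and 0 lower at day 7 against day 2, beside 8.2% and 3.74%, and 0 of 31 higher and 1 lower in reversed against day 7, beside 3.08% and 1.11%. The reversed library against sham gave 4 of 30 higher and 4 lower, beside 8.66% and 8.38%. With so few genes, none of these counts is read as differing from the background. The medians were 0.18, 0.08, 0.01 and 0.03 beside 0.20, 0.07, -0.01 and 0.18 for all genes. Pcbp1, an iron chaperone that loads ferritin, was 139 CPM in sham and 312 at day 2. Lrp1, a receptor for haemopexin, was 53.1 CPM on 8 UMIs and then 108. Hfe, a regulator of iron sensing, was 199 CPM in sham, 62.5 at day 2 and 93.5 after reversal, and was called lower in both. Nfe2l2, a transcription factor of the antioxidant response that acts on ferritin and haem oxygenase genes, was 126 CPM in sham and 254 after reversal.

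Among listed genes in proximal tubule cells, 6 of 32 were higher and 0 lower at day 2 against sham, beside 12.0% and 1.44% of all genes. The counts were 1 of 30 higher and 0 lower at day 7 against day 2, beside 10.4% and 2.23%, and 1 of 30 higher and 3 lower in reversed against day 7, beside 2.15% and 9.49%. The reversed library against sham gave 4 of 31 higher and 0 lower, near the background of 12.0% and 0.129%. Lcn2, a siderophore-binding protein, had 4 UMIs (0.418 CPM) in sham and 353 UMIs (106 CPM) at day 2, but endothelial cells had 88.5 CPM and T and NK cells 124 CPM at day 2, so the proximal level was read as background. Over tubule cells of all segments Lcn2 was 3.81 CPM in sham and 1728 at day 2. Cp, the ferroxidase ceruloplasmin that works beside ferroportin, was 78.1 CPM at day 2, 297 at day 7 and 41.8 after reversal, against 46.6, 13.5 and 6.496 CPM in endothelial cells. Cp at day 7 was thus 1.91 above day 2 (1.69 to 2.14), and the reversed level was 2.80 below day 7 (-3.02 to -2.58). Slc40a1 itself did not differ between day 2 and day 7 beyond counting error in these cells.

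For each member, the 2 genes most like it were found by Pearson correlation of log2(CPM + 1) over 20 sums of a gate in a library, among 6693 genes. These are descriptions over sums that share libraries and depth. Hmox1 was closest to Ctsb (0.91), a lysosomal protease, and Pla2g7 (0.89). Fth1 was closest to Ftl1 (0.88) and Rab20 (0.88), and Ftl1 to its copy Gm10116 (0.99) and Atp6v1b2 (0.90), a subunit of the vacuolar proton pump. Slc40a1 was closest to F3 (0.83) and Cd63 (0.81), and Trf to Myo5a (0.95) and Dpep2 (0.93). Tfrc was closest to Ndufa3 (0.91) and Atp5k (0.91), genes of mitochondrial proteins. Hp was closest to Cebpb (0.95), a transcription factor of myeloid cells, and Clec4e (0.89), Cd163 to Scamp2 (0.88) and Ciita (0.84), and Slc11a1 to Trem2 (0.93) and Msr1 (0.93), both macrophage receptors.

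The Smart-seq2 plates gave a second view of phagocytes with full-length reads. Their wells carry no time point, and reads without molecular identifiers are not independent molecules. Of 768 wells, 674 passed the phagocyte gate and 4 the tubule gate, at a median of 95274 reads per well over all wells. Hmox1 had a read in 43.2% of phagocyte wells (39.4 to 47.0), with a median of 0 and a highest value of 7093 CPM of reads. The 10% of wells with the most held 80.1% of the summed CPM of reads. Other sparsely read genes also had high shares, 73.1% for Slc48a1 and 91.7% for Hp. Fth1 and Ftl1 had medians of 3368 and 3120 CPM of reads and a read in 673 and 672 of the 674 wells.

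In 16 wells Hmox1 reached at least 1000 CPM of reads and 3 reads. In these wells the median Fth1 was 6194 and the median Ftl1 6598 CPM of reads, against 3349 and 3103 in the other 658. The limit divided a range here as well, with 17 wells just below it and 8 just above. Depth differed between them, with a median of 366158 reads in the 16 wells and 51245 in the rest, and its part in the difference was not tested. Slc40a1 had a read in 33 phagocyte wells, Tfrc in 50 and Cd163 in 34. Trf had a read in 66.8% of wells and Slc11a1 in 83.7%. Hp summed to 210 CPM of reads in 43 monocyte wells and 1.38 in 443 macrophage wells, the same order as in the droplet libraries.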

How the data were processed

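For the 4 droplet libraries the deposited values are UMI counts, not normalized, and for the Smart-seq2 sample they are read counts of each well, also not normalized, as the whole numbers in the authors' files show. Cell Ranger, STAR, GRCm38 and mm10 are named in the submitters' processing notes, without versions. The members, gene lists and tests were chosen with earlier results of these data known. Cells under 200 genes or over 50% mitochondrial UMIs were dropped, and the highest Scrublet scores (scanpy 1.11.5) were removed at 0.8% per 1000 deposited cells (187, 48, 160 and 96 cells), because the automatic threshold marked 0, 8, 2 and 25.

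Gates used fixed marker lists, with thresholds set after the data had been seen: 1% of UMIs for phagocytes, 0.5% for proximal tubule and loop of Henle, 0.4% for distal and collecting duct, endothelial and stromal cells, 0.3% for T and NK cells and 0.5% for neutrophils. Phagocytes with at least 1% of UMIs in macrophage genes were called macrophages, and others with at least 0.3% in monocyte genes monocytes. A cell past the neutrophil threshold was not counted as a phagocyte, the tubule thresholds counted as 1 gate, and dendritic cells were taken among cells in no other gate. Cells past more than 1 of the remaining gates were left out. Counts were summed per gate and library and expressed as CPM. Ratios are log2 with 1 CPM added, which understates changes of low genes. Intervals are exact Poisson, Clopper-Pearson or conditional binomial, and 0 counts were set to 3 for folds. PCR reads without identifiers are not independent, so Smart-seq2 intervals cover counting error only. In sums of cells, fewer expressing cells and less RNA per cell cannot be told apart unless cells are counted.

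Genes named are the 9 members, listed iron genes past 2-fold with at least 100 CPM in the higher library, and the 2 most correlated genes of each member. The ratio and fold calls were tested on simulated data, where unchanged genes passed 2-fold by counting noise more often in comparisons with sham phagocytes than in any other. Alternatives were TMM (edgeR 4.0.16) and median-of-ratios scaling, mitochondrial UMIs left out, other filters, pseudocounts and gates, Leiden clusters (leidenalg 0.10.2), free RNA subtracted, and equal weight per cell. No other per-sample columns were present.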

Additional observations from a re-analysis of the deposited data

Results flagged for a closer look

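For 9 differences between libraries, the phagocyte and proximal tubule gates, each taken as a whole, moved in opposite directions with intervals that exclude 0 on both sides. That of Fth1 at day 7 against day 2 did not hold within the phagocyte sub-gates, as given below. Nor did that of Hmox1 hold in monocytes. There is 1 library per condition, and none of these differences between cell types was tested. Log2 differences of CPM with 1 added are given, phagocytes first.

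After reversal, against day 7, Hmox1 stood at 1.01 in phagocytes and -0.996 in the proximal tubule, Slc40a1 at 1.24 and -0.59, Fth1 at 0.64 and -0.091, and Trf at 0.34 and -0.74. In phagocytes the Hmox1 and Slc40a1 UMIs were concentrated in few cells, as given above. Hmox1 went from 74.4 to 66.4 CPM in monocytes, with intervals that overlapped, and was higher after reversal in macrophages and the remaining phagocytes. At day 7 against day 2, Fth1 stood at 0.085 and -1.15. Within each phagocyte sub-gate, however, Fth1 was lower at day 7, the same direction as in the proximal tubule. It went from 5185 to 4873 CPM in monocytes, from 11073 to 9396 in macrophages and from 7808 to 7219 in the remaining phagocytes. The macrophage share of the gate was 23.7% at day 2 and 75.9% at day 7. At day 2 against sham, Trf stood at -0.62 and 1.30 and Hp at -1.04 and 2.18. The macrophage share of the gate was 57.1% in sham and 23.7% at day 2. Within macrophages the Trf intervals of these libraries overlapped, as given above. In reversed against sham, Ftl1 stood at 0.67 and -0.33 and Hp at -2.69 and 1.503. The proximal values of Hp were at the level of endothelial and T and NK cells. Proximal Trf overlapped the endothelial level in each library but was above T and NK cells at day 2, and with free RNA subtracted its difference between the reversed and day 7 libraries was -0.15.

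Of these 9, 6 kept opposite signs in all 13 alternatives. For Fth1 in reversed against day 7 the proximal value was 0.23 with TMM factors, 0.21 with median-of-ratios factors and 0.12 with mitochondrial UMIs left out, the same direction as in phagocytes. For Fth1 at day 7 against day 2 the phagocyte value was -0.0011 with TMM factors, and for Hp at day 2 against sham it was 0.17 with each cell counted equally.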

How the results depend on the processing

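Of the 21 member ratios past 2-fold, 16 stayed past it with TMM factors, 17 with median-of-ratios factors, 17 with at most 20% mitochondrial UMIs, 17 with double the marker share, 17 with each cell counted equally, 19 with gates from Leiden clusters, 20 with free RNA subtracted, 20 without doublet removal, 20 with mitochondrial UMIs left out of the total and 21 with at least 500 genes per cell. A pseudocount of 10 CPM kept 11. A library at 0 was set to 3 UMIs. By log2 value alone, 19 stayed with free RNA subtracted, 18 with at most 20% mitochondrial UMIs and 10 with that pseudocount. The alternative without phagocytes high in Hmox1, chosen after seeing the data, kept 6 of the 11 phagocyte ratios. Ratios short of 2-fold passed it, before any minimum of UMIs, in 3 cases with TMM factors, 2 with median-of-ratios factors, 6 with free RNA subtracted, 2 with a pseudocount of 0.1 CPM and 1 each with at most 20% mitochondrial UMIs, double the marker share and Leiden clusters. Those with free RNA subtracted included proximal Trf at day 7 against day 2 (-2.18) and in reversed against sham (-1.17 in place of 0.52). Among ratios past 2-fold, directions turned in 3 cases. Without those cells, day 7 against day 2 gave 0.0038 for Hmox1 and 0.51 for Slc40a1 in phagocytes (log2). With each cell counted equally, Hp at day 2 against sham gave 0.17 in phagocytes. The cause was not tested. Among ratios short of 2-fold, 4 whose intervals exclude 0 turned under 1 to 3 alternatives: proximal Trf as just given, proximal Ftl1 at day 2 against sham, proximal Fth1 in reversed against day 7, and phagocyte Fth1 at day 7 against day 2. So did 8 whose intervals include 0. Free RNA subtraction left 0 for proximal Slc11a1 in reversed against sham. Gm10116, also chosen after seeing the data, added 1.28% to 2.24% to Ftl1 UMIs.

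The counts of members past 2-fold, which also need 10 UMIs (after any subtraction), moved as follows. In phagocytes at day 2 against sham, 2 became 1 with median-of-ratios factors, double the marker share, each cell counted equally or without the cells high in Hmox1, and with TMM factors both were higher (Hmox1 and Ftl1) in place of 1 higher and 1 lower. Reversed against sham gave 3 in place of 2 with TMM factors, median-of-ratios factors or free RNA subtracted, through Fth1. At day 7 against day 2, 5 became 3 with each cell counted equally or a pseudocount of 10 CPM, and 2 without the cells high in Hmox1. In reversed against day 7, 2 became 1 with TMM factors, double the marker share, Leiden clusters, each cell counted equally or without the cells high in Hmox1, 0 with a pseudocount of 10 CPM, and 3 with free RNA subtracted, through Tfrc at -2.53. In the proximal tubule at day 2 against sham, 5 became 2 with TMM or median-of-ratios factors or a pseudocount of 10 CPM, and 3 with at most 20% mitochondrial UMIs. At day 7 against day 2, 1 became 2 with TMM or median-of-ratios factors, at most 20% mitochondrial UMIs, double the marker share, Leiden clusters, free RNA subtracted or a pseudocount of 0.1 CPM. In reversed against day 7, 2 became 1 with double the marker share, Leiden clusters, no doublet removal or at least 50 UMIs, 0 with a pseudocount of 10 CPM, and 3 with free RNA subtracted or a pseudocount of 0.1 CPM, through Hmox1 at -1.13 and -1.02. In reversed against sham, 2 became 0 with at most 20% mitochondrial UMIs or at least 50 UMIs, and 1 with free RNA subtracted or a pseudocount of 10 CPM. After subtraction that 1 is Trf, lower, while Hp (6.51 UMIs left, and 9.135 at day 7 against day 2) is not counted.

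Of the other iron genes, the phagocyte counts were 4 in place of 10 at day 2 against sham with a pseudocount of 10 CPM. At day 7 against day 2 they were 4 in place of 2 with free RNA subtracted or without the cells high in Hmox1, and 1 with a pseudocount of 10 CPM. In reversed against day 7 free RNA subtraction gave 0 in place of 1. In reversed against sham, 8 became 5 with double the marker share or Leiden clusters and 4 with a pseudocount of 10 CPM. Proximal counts of 6 became 3 with TMM factors and 2 with a pseudocount of 10 CPM at day 2 against sham, and 1 became 2 with at least 1 UMI at day 7 against day 2. In reversed against day 7, 4 became 2 with a pseudocount of 10 CPM. In reversed against sham, 4 became 2 with at most 20% mitochondrial UMIs or a pseudocount of 10 CPM, and 1 with free RNA subtracted.

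With a pseudocount of 10 CPM the percentages of all genes past 2-fold in phagocytes were 10.4, 3.37, 0.814 and 6.80 in place of 22.8, 11.9, 4.19 and 17.04, with the comparisons in the order used above. Proximal percentages were 3.17, 2.61, 2.75 and 2.07 in place of 13.4, 12.7, 11.6 and 12.1. With 0.1 CPM they were 19.0 at day 7 against day 2 and 9.43 in reversed against day 7 in phagocytes, and 18.2 in reversed against sham in the proximal tubule. At least 50 UMIs gave 7.79 at day 7 against day 2 and 7.47 in reversed against sham in the proximal tubule, and free RNA subtraction gave 6.70 in the latter.

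No paired analysis was possible because each condition has 1 library, and no replicate could be left out. The 49 sham phagocytes, where 3 UMIs equal 19.9 CPM, limit every comparison with them.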
